A study of Mus musculus with 6 samples.

Results

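Heat shock genes are described here in mouse embryonic fibroblasts (MEFs) that lacked *Aff3ir-ORF2*, an open reading frame of a gene nested within *Aff3*. The 10 genes were chosen by symbol: *Hsf1*, *Hspa1a*, *Hspa1b*, *Hspa8*, *Hsph1*, *Dnajb1*, *Hsp90aa1*, *Hspd1*, *Hspe1* and *Hspb1*. All 10 were found among the 17092 genes of the table, and all 10 were among the 13075 genes with enough counts to be tested. Total RNA, as the labels put it, was sequenced in 3 libraries of MEFs from wild-type (WT) mice and 3 libraries of MEFs from *Aff3ir-ORF2-/-* mice. The knockout was a germline change made with Cas9 mRNA and guide RNAs in fertilized eggs, so it was not limited to a cell type, and the labels name no treatment of either group. The sources used here do not say whether the 3 libraries of a genotype came from separate embryos or cultures, so the p-values measure the spread between these libraries, which may be technical. The comparison asks how the RNA levels of the chaperone system differed between the genotypes in cultured cells.

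Chaperones hold unfolded proteins and help them to fold, and many of them are made in larger amounts after heat or other damage to proteins. The transcription factor HSF1, encoded by *Hsf1*, is held inactive by chaperones and, when released, forms trimers on heat shock elements, which are inverted repeats of the letters GAA spaced by a pair of bases. *Hspa1a* and *Hspa1b* are its classical inducible targets, whereas *Hspa8* encodes the constitutive HSP70 of the same compartment. The name cytosolic chaperone does not cover all 10 genes, since *Hsf1* encodes a transcription factor and *Hspd1* and *Hspe1* encode the chaperonin of the mitochondrial matrix and its lid. The group is therefore called heat shock genes below.

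The libraries held 17435133 to 18252330 counts each. Fibroblast genes were high in both genotypes: mean *Col1a1*, a chain of type I collagen, was at 7366 CPM (counts per 1000000 counts of the library) in WT and 5246 CPM in *Aff3ir-ORF2-/-*, and 5 of the 16 fibroblast markers were higher and 5 lower. Of these, 5 were higher and 8 lower without *Aff3ir-ORF2-/-* replicate 2. With all 6 libraries, 29.4% of all tested genes were higher and 27.6% lower. Macrophage markers differed between the groups: their summed level was 24.5 to 27.6 CPM in WT and 1415 to 2406 CPM in *Aff3ir-ORF2-/-*, and of the 8 markers with at least 10 counts in every library all 8 were higher. The other markers that could be tested entered the test through their counts in *Aff3ir-ORF2-/-*, so that their calls were set in part by the filter. Where a pair of CPM values is given for a gene, they are the group means, WT first. The lysozyme gene *Lyz2* rose from 10.4 to 1085 CPM, the mannose receptor gene *Mrc1* from 0.210 to 66.9 CPM, *Ctss* from 0.879 to 162 CPM and *Mpeg1* from 1.59 to 184 CPM, while *C1qa*, *C1qb* and *Aif1* had 0 counts in all 3 WT libraries. Of the endothelial markers, 3 of the 7 tested were higher, among them *Kdr* and *Vwf*, and 2 were lower, among them *Flt1*, and of the epithelial markers 1 of the 3 tested was higher. That marker, *Cldn3*, had 1 count in all WT libraries together, passed the filter on low counts only through *Aff3ir-ORF2-/-*, and left 0 calls when 10 counts were required in every library. Of 5 epithelial markers tested without *Aff3ir-ORF2-/-* replicate 2, 2 were higher. In a bulk sample, fewer cells of a type and less RNA per cell cannot be told apart. The *Aff3ir-ORF2-/-* libraries spread more than the WT libraries, with a median absolute log2 difference of a gene to the other libraries of its genotype of 0.0582 to 0.0646 in WT and 0.0955, 0.137 and 0.105 in *Aff3ir-ORF2-/-* replicates 1, 2 and 3. Replicate 2 had the lowest CPM of the *Aff3ir-ORF2-/-* libraries for 8 of the 10 heat shock genes and for 40.8% of all tested genes. For the 10 genes, values without it are therefore given where a call changed or the value moved by over 1.5 times. For the lists, counts without it are given where the higher or lower count moved by over 1.5 times. Smaller moves of the list counts are not all given. The transcript of *Aff3ir* was not analysed here, and the labels of genotype were not checked by the targeted gene.

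RefSeq gave the 250 bases upstream of an annotated start of transcription for 7 of the 10 genes, on the build GRCm38.p6. The windows of the inducible pair *Hspa1a* (chr17:34972157-34972406, minus strand) and *Hspa1b* (chr17:34959239-34959488, minus strand) are shown because these were the only heat shock genes of the 10 that rose, with a log2 fold change of 0.86 for each. The capitals mark a pair of heat shock units, the letters GAANNTTC.
Hspa1a: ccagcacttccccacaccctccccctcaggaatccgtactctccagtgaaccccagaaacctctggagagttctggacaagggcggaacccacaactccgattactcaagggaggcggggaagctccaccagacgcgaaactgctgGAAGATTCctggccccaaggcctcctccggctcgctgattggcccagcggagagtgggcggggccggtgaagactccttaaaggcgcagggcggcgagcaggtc
Hspa1b: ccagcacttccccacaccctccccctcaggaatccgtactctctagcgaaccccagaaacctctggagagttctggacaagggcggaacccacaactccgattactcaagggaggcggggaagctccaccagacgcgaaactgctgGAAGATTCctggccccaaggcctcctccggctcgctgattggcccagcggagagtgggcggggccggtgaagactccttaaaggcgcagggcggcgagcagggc
The windows were identical at 247 of 250 positions (98.8%). Counted from 1 at the 5′ end, with the base of *Hspa1a* first, they differed by C44T, T47C and T249G, none of which lay in the capitals. The unit pair lay at bases -104 to -97 from the start in both genes.

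The same letters were searched on both strands of the other windows as GAANNTTC or TTCNNGAA for 2 units and as GAANNTTCNNGAA or TTCNNGAANNTTC for 3 units, and matches of the first kind may overlap those of the second. Of 32851 upstream windows in RefSeq, 12.8% held 2 units and 0.466% held 3 units. *Hspd1* and *Hspe1* are transcribed away from each other, and the same stretch of DNA (chr1:55088053-55088082) lies upstream of *Hspe1* and of the first annotated start of *Hspd1*. It is shown on the strand of each gene, with 4 units in a row in capitals, because both genes fell, with a log2 fold change of -0.20 for each.
Hspe1, plus strand: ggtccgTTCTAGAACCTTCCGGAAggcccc
Hspd1, minus strand: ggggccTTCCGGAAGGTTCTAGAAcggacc
This run lay at bases -89 to -72 of *Hspe1* and at -144 to -127 of the first start of *Hspd1*. It lies inside the transcript that begins at the second annotated start of *Hspd1*, whose own window held no match. The window of *Hspb1* held 2 pairs of units, at -117 to -110 (chr5:135887791-135887820, plus strand) and at -97 to -90 (chr5:135887811-135887840, plus strand), and that of *Hsph1* held 1 pair (chr5:149636351-149636380, minus strand), at -54 to -47 or at -33 to -26 depending on the annotated start. These sites are shown because neither gene passed the test with all 6 libraries.
Hspb1, distal: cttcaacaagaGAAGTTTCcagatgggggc
Hspb1, proximal: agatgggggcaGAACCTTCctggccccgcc
Hsph1: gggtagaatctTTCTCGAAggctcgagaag
The windows of *Dnajb1* held no match to these letters. A match is a description of letters and was not tested for binding, and the genes with a match both rose and fell.

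**Figure D1:**
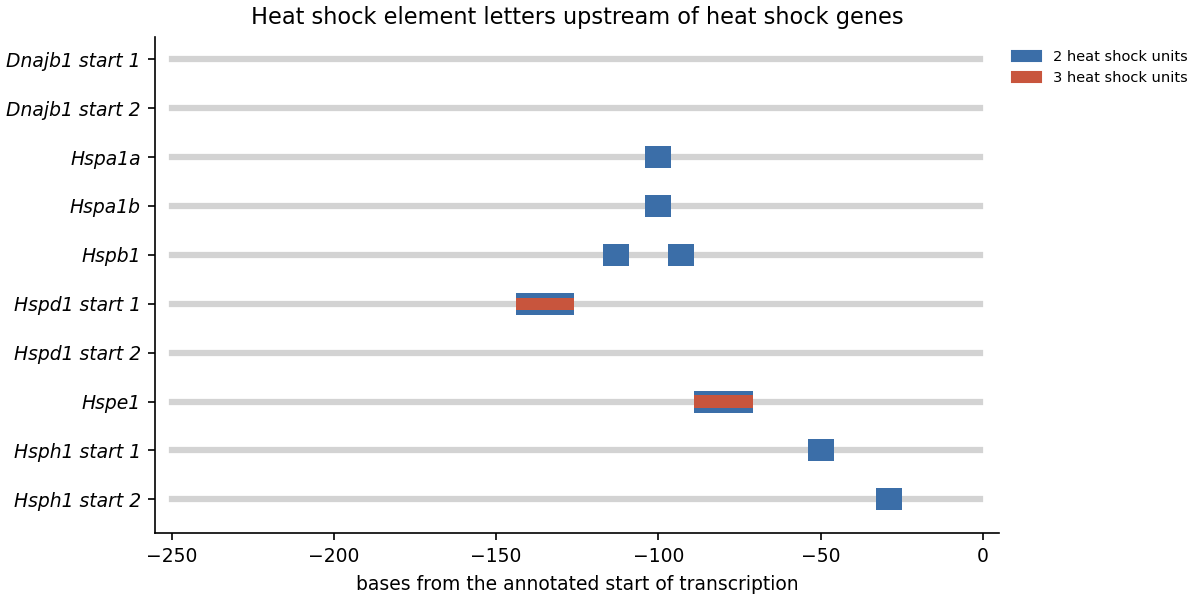
Position of heat shock unit letters upstream of 7 heat shock genes; the x axis gives bases from the annotated start of transcription, each grey line is 1 window of 250 bases, blue bars mark 2 units and red bars 3 units. *Hspd1* and *Hspe1* hold the only runs of 3 or more units, at -144 to -127 and -89 to -72.

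Of the 10 heat shock genes, 2 were higher in *Aff3ir-ORF2-/-* MEFs, 3 were lower and 5 did not pass the test (edgeR quasi-likelihood, Benjamini-Hochberg adjusted p under 0.05). *Hspa1a* and *Hspa1b* rose, *Hsp90aa1*, *Hspd1* and *Hspe1* fell, and the median log2 fold change of the 10 was -0.09 beside 0.0056 for all tested genes. Across all tested genes, 29.4% were higher and 27.6% lower, and the shares of the 10 in each direction lay close to that background. Without *Aff3ir-ORF2-/-* replicate 2, 3 were higher and 3 lower. In that fit 8037 of 13169 tested genes were called in either direction, beside 7444 of 13075 with all 6 libraries. With a change of at least 1.5-fold also required, 2 of the 10 were higher and 0 lower, beside 14.3% and 7.32% of all tested genes. These 2 were *Hspa1a* and *Hspa1b*, whose split of reads is uncertain, so their calls may not be independent. The CPM of the 3 libraries of one genotype did not overlap those of the other for 7 of the 10 genes, beside 66.0% of all tested genes. The heat shock genes together took 0.460% to 0.472% of all counts in WT libraries and 0.380% to 0.432% in *Aff3ir-ORF2-/-* libraries, with replicate 2 the lowest. Macrophage markers rose in the same libraries as given above, and their part in these differences was not tested.

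**Figure D2:**
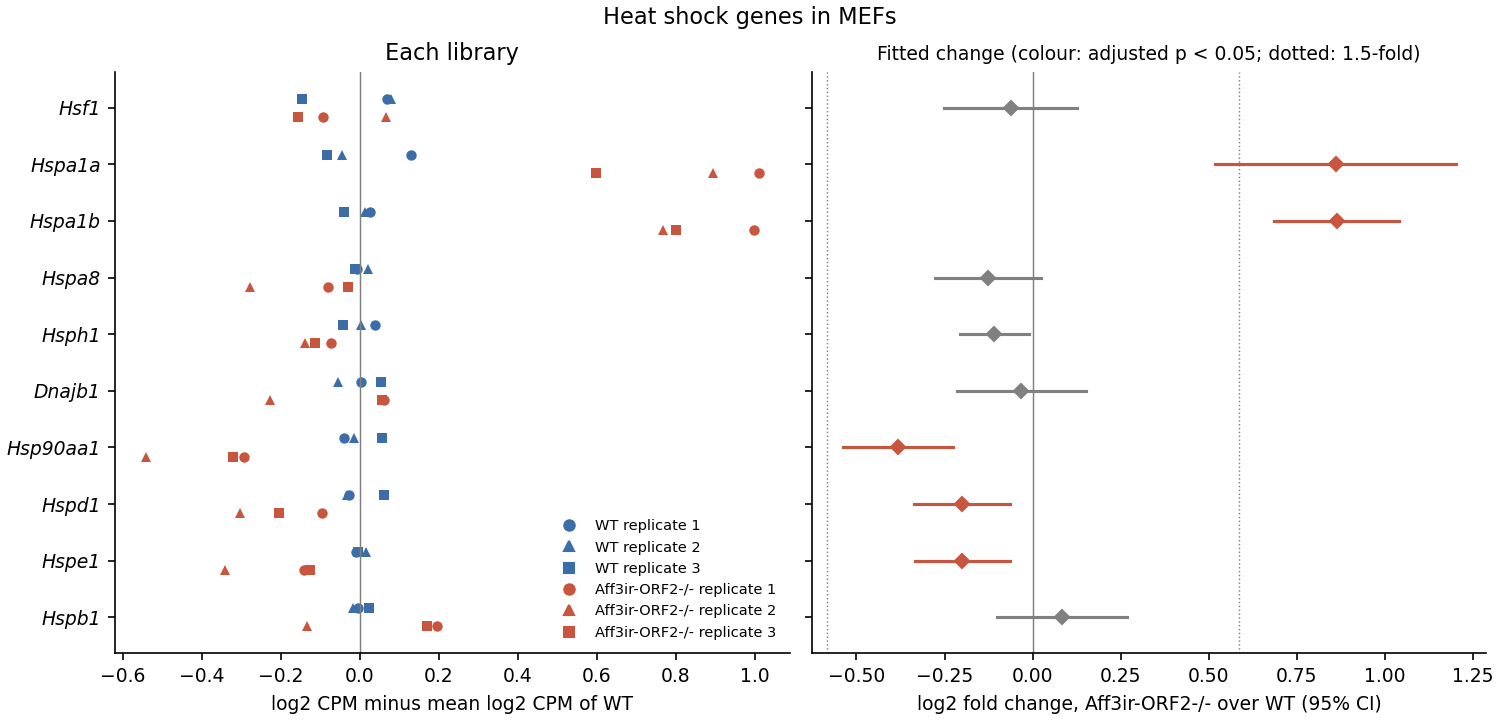
Left, log2 CPM of each library minus the WT mean for the 10 heat shock genes (blue WT, red *Aff3ir-ORF2-/-*, marker shape the replicate); right, the fitted log2 fold change with its 95% confidence interval, coloured where the adjusted p was under 0.05. *Hspa1a* and *Hspa1b* sit near 0.86, *Hsp90aa1* at -0.38, and the intervals of *Hsf1*, *Hspa8*, *Dnajb1* and *Hspb1* cross 0.

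*Hsf1* (gene ID 15499), the master regulator of the heat shock response, was at 36.2, 36.5 and 31.1 CPM in WT replicates 1, 2 and 3 and at 32.3, 36.1 and 31.0 CPM in *Aff3ir-ORF2-/-* replicates 1, 2 and 3. The groups overlapped, with replicate 3 the lowest in WT and replicate 2 the highest in *Aff3ir-ORF2-/-*. The log2 fold change was -0.06 (standard error 0.083, 95% confidence interval -0.25 to 0.13, adjusted p = 0.548). It was -0.13 without *Aff3ir-ORF2-/-* replicate 2 (adjusted p = 0.136) and -0.14 without WT replicate 3 (adjusted p = 0.212), over a range of adjusted p of 0.136 to 0.881 in all alternatives. Among 8 other heat shock factors and regulators of HSF1 that were tested, 2 were higher, 2 were lower and the median log2 fold change was 0.0007. The shares over all tested genes were 29.4% higher and 27.6% lower, close to those of this list. With *Aff3ir-ORF2-/-* replicate 2 left out, 4 were higher and 2 lower. *Sirt1*, a deacetylase that prolongs the binding of HSF1 to DNA, fell from 37.1 to 24.5 CPM (log2 fold change -0.60, adjusted p = 0.000154). *Hsbp1*, which encodes a small protein that binds the trimer of HSF1, rose from 51.9 to 70.6 CPM (log2 fold change 0.45, adjusted p = 8.69e-05), and *Vcp*, an ATPase that extracts ubiquitinated proteins, was at 905 and 957 CPM (adjusted p = 0.208).

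*Hspa1b* (gene ID 15511), an inducible HSP70, was at 16.5, 16.3 and 15.7 CPM in the WT libraries and at 32.4, 27.6 and 28.3 CPM in the *Aff3ir-ORF2-/-* libraries. Every *Aff3ir-ORF2-/-* library lay above every WT library. The log2 fold change was 0.86 (standard error 0.078, 95% confidence interval 0.69 to 1.04, adjusted p = 3.39e-05), a fold of 1.82. *Hspa1a* (gene ID 193740), its near-identical neighbour, was at 4.06, 3.58 and 3.49 CPM in WT and at 7.58, 6.98 and 5.67 CPM in *Aff3ir-ORF2-/-*, again with no overlap. Its log2 fold change was also 0.86, with a wider interval of 0.52 to 1.20 (standard error 0.15, adjusted p = 0.0013), at counts of 61 to 70 in WT and 104 to 138 in *Aff3ir-ORF2-/-*.

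The split of reads between the pair is uncertain. These were the only heat shock genes of the 10 whose deposited values were not whole numbers. Of the 150-base windows of the *Hspa1b* transcript, 40.5% also occur in the transcript of *Hspa1a*. For *Hspa1a*, 46.0% of the windows also occur in other annotated transcripts, and 38.1% in that of *Hspa1b*. Summed, the pair had 354, 351 and 336 counts in WT and 728, 645 and 623 counts in *Aff3ir-ORF2-/-* libraries, or 19.9 ± 0.651 and 36.2 ± 3.30 CPM (SD, n = 3 each). The sum rose by 0.86 on the log2 scale (standard error 0.077, 95% confidence interval 0.69 to 1.04, adjusted p = 3.33e-05). The rise thus did not rest on how reads were divided between these genes. Reads that *Hspa1a* may share with further genes are not settled by the sum. *Hspa1b* took 79.9% to 83.3% of the pair in the 6 libraries, in overlapping ranges between the genotypes. Without replicate 2 of *Aff3ir-ORF2-/-*, the log2 fold changes were 0.90 for *Hspa1b* and 0.83 for *Hspa1a* (adjusted p = 1.6e-06 and 0.00129).

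*Hspa8* (gene ID 15481), the constitutive HSP70 that folds new proteins and uncoats clathrin vesicles, was at 2055, 2095 and 2046 CPM in WT and at 1951, 1703 and 2024 CPM in *Aff3ir-ORF2-/-*. The groups did not overlap, but replicate 3 of *Aff3ir-ORF2-/-* came close to the lowest WT library and replicate 2 lay well below. The log2 fold change was -0.13 (standard error 0.066, 95% confidence interval -0.28 to 0.02, adjusted p = 0.134). The result turned on single libraries: without *Aff3ir-ORF2-/-* replicate 3 it was -0.18 (adjusted p = 0.043) and without replicate 2 it was -0.06 (adjusted p = 0.0917), over a range of adjusted p of 0.043 to 0.282 in all alternatives. Of the 150-base windows of its transcript, 56.0% also occur in another annotated transcript, mostly *Gm26825*.

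The inducible pair was compared with the constitutive gene within each library, which removes the scaling between libraries. The log2 ratio of the pair to *Hspa8* was -6.64, -6.72 and -6.73 in WT and -5.61, -5.62 and -5.90 in *Aff3ir-ORF2-/-*. The ratios did not overlap and differed by 0.99 on the log2 scale (two-sided exact permutation test, p = 0.1, and 0.25 after adjustment over 5 ratios). With 3 libraries against 3, an exact permutation test cannot give a p below 0.1.

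*Hsph1* (gene ID 15505) encodes HSP110, which exchanges the nucleotide of HSP70. It was at 117, 114 and 111 CPM in WT and at 108, 104 and 105 CPM in *Aff3ir-ORF2-/-*, so that all *Aff3ir-ORF2-/-* libraries lay below all WT libraries by a small step. The log2 fold change of -0.11 (standard error 0.043, 95% confidence interval -0.21 to -0.01) had an adjusted p of 0.0579 and missed the threshold. *Dnajb1* (gene ID 81489), the J-domain protein HSP40 that delivers clients to HSP70, was at 49.1, 47.2 and 50.9 CPM in WT and at 51.2, 41.9 and 51.0 CPM in *Aff3ir-ORF2-/-*. Replicates 1 and 3 of *Aff3ir-ORF2-/-* were at or just above the highest WT library and replicate 2 was below all WT libraries. The log2 fold change was -0.03 (standard error 0.081, 95% confidence interval -0.22 to 0.15, adjusted p = 0.755), and its sign turned without replicate 2 (0.05, adjusted p = 0.36).

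Set against *Hspa8* in the same library, neither cochaperone separated the genotypes. The log2 ratio of *Hsph1* to *Hspa8* was -4.18 ± 0.0406 in WT and -4.16 ± 0.112 in *Aff3ir-ORF2-/-* (SD, n = 3 each, exact permutation p = 0.8, adjusted 1). That of *Dnajb1* to *Hspa8* was -5.40 ± 0.0724 and -5.30 ± 0.0472 (SD, n = 3 each, exact permutation p = 0.2, adjusted 0.333), a difference of 0.09.

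**Figure D3:**
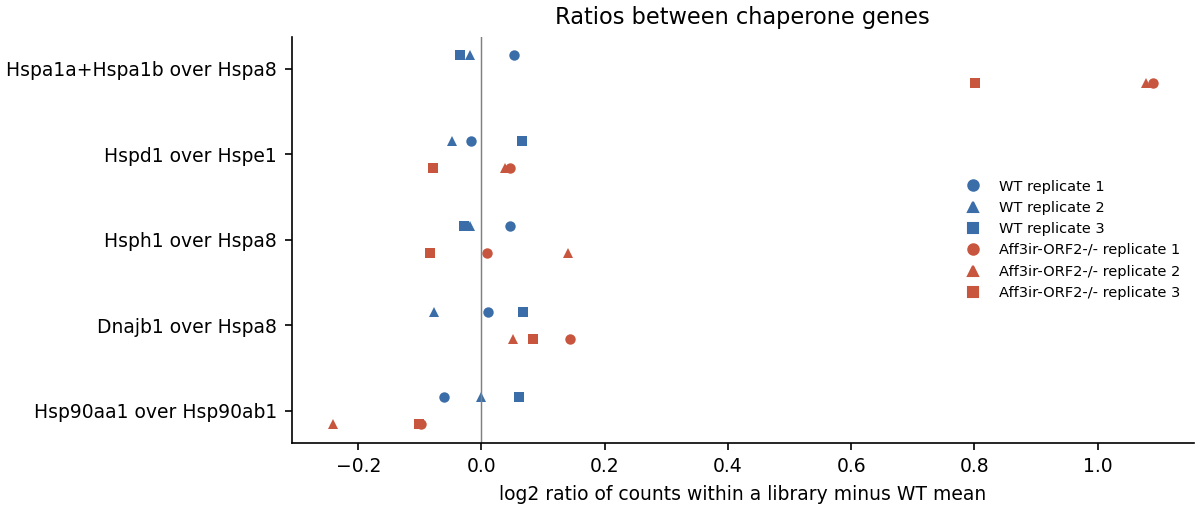
Log2 ratio of counts of gene pairs within each library, minus the WT mean (blue WT, red *Aff3ir-ORF2-/-*, marker shape the replicate). The inducible HSP70 pair over *Hspa8* lies 0.99 higher in *Aff3ir-ORF2-/-* with no overlap, *Hsp90aa1* over *Hsp90ab1* lies 0.15 lower with no overlap, and the other 3 ratios overlap.

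Other genes of the HSP70 machine were called in both directions, beside 29.4% of all tested genes higher and 27.6% lower. Of 7 other HSP70 and HSP110 genes, 1 was higher and 1 lower: *Hspa4l*, of the HSP110 branch, rose from 47.7 to 72.3 CPM (log2 fold change 0.60, adjusted p = 0.00362) and *Hspa14*, whose product works at the ribosome, fell from 68.1 to 46.3 CPM (log2 fold change -0.56, adjusted p = 2.16e-05). *Hspa4* was at 437 and 423 CPM (adjusted p = 0.443). Of 15 J-domain genes of the cytosol, 3 were higher and 3 lower with a median log2 fold change of -0.02 (0.01 without *Aff3ir-ORF2-/-* replicate 2), and the most abundant of them, *Dnaja1*, *Dnajc13* and *Dnaja2*, did not pass the test (-0.02, -0.07 and 0.01). Of 12 other cochaperones of HSP70, 1 was higher and 6 were lower, with a median of -0.13. They included *Bag6*, which guards exposed membrane segments (log2 fold change -0.13, adjusted p = 0.0359), and *St13*, which encodes HIP and slows the release of ADP from HSP70 (-0.12, adjusted p = 0.0293), while *Bag1*, a nucleotide exchange factor, was at 137 and 138 CPM (adjusted p = 0.77). The 7 calls became 4 with upper quartile scaling, with scaling by library totals, or when any 1 WT library was left out.

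*Hsp90aa1* (gene ID 15519), the inducible HSP90 that matures kinases and steroid receptors and holds HSF1, was at 1306, 1331 and 1396 CPM in WT and at 1097, 923 and 1075 CPM in *Aff3ir-ORF2-/-*. The groups were apart, with replicate 2 the lowest. Expression fell by 0.38 on the log2 scale (standard error 0.069, 95% confidence interval -0.54 to -0.23, adjusted p = 0.00156), a change of -23.3%. Without replicate 2 the log2 fold change was -0.31 (adjusted p = 1.16e-05). Its constitutive paralog *Hsp90ab1* fell from 2621 to 2223 CPM (log2 fold change -0.24, adjusted p = 0.00287). The log2 ratio of *Hsp90aa1* to *Hsp90ab1* was -1.02, -0.96 and -0.90 in WT and -1.06, -1.20 and -1.07 in *Aff3ir-ORF2-/-*. All *Aff3ir-ORF2-/-* ratios were below the WT ratios, with a difference of -0.15 (exact permutation p = 0.1, adjusted 0.25). Of the 150-base windows of the *Hsp90aa1* transcript, 36.2% also occur in other annotated transcripts.

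Most other genes of the HSP90 system were also lower. Across all tested genes, 27.6% were lower, 7.32% by at least 1.5-fold, and 29.4% were higher. Of 17 genes of the HSP90 system outside the 10, 12 were lower and 1 was higher, with a median log2 fold change of -0.24, and 1 of the 12 also passed 1.5-fold. That gene was *Fkbp4*, the immunophilin FKBP52 of steroid receptor complexes, which fell from 195 to 115 CPM (log2 fold change -0.76, adjusted p = 1.46e-05). *Ptges3*, which encodes the client-clamping cochaperone p23, fell from 271 to 214 CPM (-0.34, adjusted p = 0.000418), and *Stip1*, which encodes HOP and bridges HSP70 and HSP90, was at 266 and 253 CPM (adjusted p = 0.211). The list holds *Hsp90ab1* itself, and 5 of its genes also stand in another list. Without *Aff3ir-ORF2-/-* replicate 2, 12 of the 17 were lower and 1 was higher, with a median of -0.20.

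*Hspd1* (gene ID 15510) and *Hspe1* (gene ID 15528) encode HSP60 and HSP10, which form the folding chamber of mitochondria. *Hspd1* was at 822, 819.6 and 875 CPM in WT and at 785, 679.7 and 728 CPM in *Aff3ir-ORF2-/-*. *Hspe1* was at 163, 166 and 164 CPM in WT and at 149, 129.8 and 151 CPM in *Aff3ir-ORF2-/-*. In both genes all *Aff3ir-ORF2-/-* libraries were below all WT libraries, with replicate 2 the lowest.

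Both genes fell by 0.20 on the log2 scale, *Hspd1* with a standard error of 0.06 (95% confidence interval -0.34 to -0.06, adjusted p = 0.0195) and *Hspe1* with a standard error of 0.06 (95% confidence interval -0.34 to -0.06, adjusted p = 0.0188). The calls rested on few libraries. Without WT replicate 3 the values were -0.17 for *Hspd1* (adjusted p = 0.0852) and -0.20 for *Hspe1* (adjusted p = 0.0546), and without WT replicate 2 *Hspe1* was at -0.19 (adjusted p = 0.0648). Over all alternatives the adjusted p ranged from 0.0064 to 0.0852 for *Hspd1* and from 0.00428 to 0.0648 for *Hspe1*. Without *Aff3ir-ORF2-/-* replicate 2 both passed the test, at -0.15 and -0.14 (adjusted p = 0.00676 and 0.00428).

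The proportion of the chaperonin to its lid did not differ beyond the spread between libraries. The log2 ratio of *Hspd1* to *Hspe1* was 2.35 ± 0.0583 in WT and 2.35 ± 0.0703 in *Aff3ir-ORF2-/-* (SD, n = 3 each, exact permutation p = 1), with fully overlapping libraries. Annotated transcripts of the pair overlap at their starts on opposite strands, and whether the counting used strand is not given in the sources used here. Of their 150-base windows, 18.6% for *Hspd1* and 14.1% for *Hspe1* also occur in another annotated transcript. Of 13 other mitochondrial chaperones and proteases, 5 were lower and 0 higher, with a median log2 fold change of -0.08. Among all tested genes, 27.6% were lower and 29.4% higher. *Hspa9*, the mitochondrial HSP70, fell from 1337 to 1098 CPM (-0.28, adjusted p = 0.00205). *Lonp1*, a protease of the matrix, had a log2 fold change of -0.30 with overlapping libraries (adjusted p = 0.041), and *Yme1l1*, a protease of the inner membrane, was at 163 and 157 CPM (adjusted p = 0.407).

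*Hspb1* (gene ID 15507), the small heat shock protein HSP25 that holds unfolding proteins and binds actin filaments, was at 79.3, 78.5 and 80.7 CPM in WT and at 91.0, 72.4 and 89.4 CPM in *Aff3ir-ORF2-/-*. Replicates 1 and 3 of *Aff3ir-ORF2-/-* lay above all WT libraries and replicate 2 lay below them. The log2 fold change was 0.08 (standard error 0.0815, 95% confidence interval -0.10 to 0.27, adjusted p = 0.401). Without replicate 2 it was 0.18 (adjusted p = 0.002), and over all alternatives the adjusted p ranged from 0.002 to 0.852. Of its 150-base windows, 36.6% also occur in other annotated transcripts, mostly *Hsp25-ps1*.

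Most other small heat shock genes rose. Of 9 listed, 6 could be tested and 5 of these were higher, 4 of them by at least 1.5-fold. When each library had to hold 10 counts, 4 calls were left. Among all tested genes, 29.4% were higher, 14.3% by at least 1.5-fold. *Cryab*, the αB-crystallin gene of muscle and lens, rose from 35.6 to 83.4 CPM (log2 fold change 1.23, adjusted p = 5.62e-06). *Hspb6*, linked to the relaxation of smooth muscle, rose from 13.3 to 32.2 CPM (1.28, adjusted p = 2.42e-06), and *Hspb8*, which works with BAG3 in autophagy, rose from 38.0 to 53.0 CPM (0.48, adjusted p = 0.000186). The muscle gene *Hspb7* (0.631 and 2.66 CPM) also rose, with 10 to 12 counts per WT library. *Hspb2* (0.114 and 0.688 CPM) had 1 to 3 counts per WT library and passed the filter on low counts only through *Aff3ir-ORF2-/-*, so its call was set in part by the filter. The markers of macrophages rose in the same libraries, and their part in these rises was not tested.

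Compared per length, the 10 genes covered a wide range. The mean level in WT, in CPM per kilobase of the longest protein-coding transcript, was 863 for *Hspa8*, 409.8 for *Hsp90aa1*, 346 for *Hspd1* and 212 for *Hspe1*. It was 85.5 for *Hspb1*, 29.98 for *Hsph1*, 16.4 for both *Hsf1* and *Dnajb1*, 5.77 for *Hspa1b* and 1.25 for *Hspa1a*. The constitutive *Hspa8* was thus 149 times as high per kilobase as the inducible *Hspa1b* in WT. In WT, neighbours in this order did not overlap, except *Hsf1* and *Dnajb1*. In *Aff3ir-ORF2-/-* the mean of *Hsp90aa1* was 314 and that of *Hspd1* 302, and their libraries overlapped, as did those of *Dnajb1* (16.02) and *Hsf1* (15.8). *Hspa1b* at 10.5 and *Hspa1a* at 2.27 were again the lowest of the 10.

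**Figure D4:**
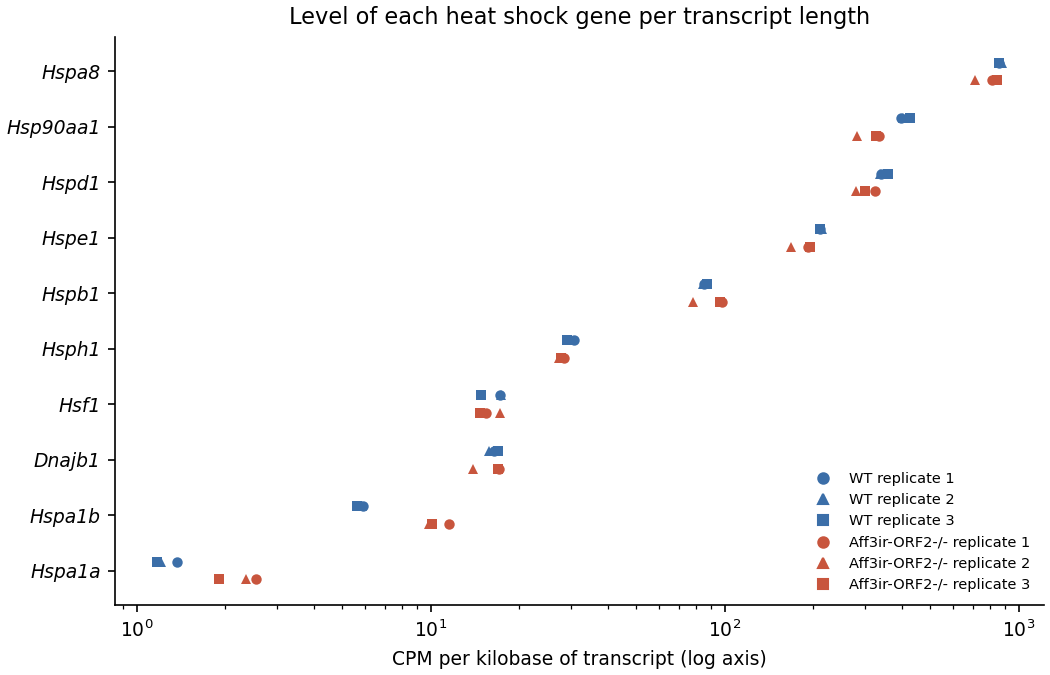
Level of each of the 10 heat shock genes in each library in CPM per kilobase of transcript, on a log axis, ordered by the WT mean (blue WT, red *Aff3ir-ORF2-/-*, marker shape the replicate). Levels run from 863 for *Hspa8* to 1.25 for *Hspa1a* in WT. The points of the genotypes do not overlap for 7 of the 10 genes, beside 66.0% of all tested genes by CPM.

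Further chaperones, of the cytosol and of the endoplasmic reticulum, were compared as a frame for the 10. Their counts stand beside 29.4% of all tested genes higher and 27.6% lower. Of 14 genes of the cytosolic chaperonin TRiC and of prefoldin, 7 were lower and 1 higher, with a median log2 fold change of -0.17. The TRiC subunit *Tcp1* fell from 530.1 to 461 CPM (-0.20, adjusted p = 0.00689), and *Cct2* and *Cct8* did not pass the test (-0.06 and -0.14). Chaperones of the endoplasmic reticulum went mostly the other way: of 16 genes, 12 were higher and 1 lower, with a median of 0.23. *Hsp90b1*, the HSP90 of that compartment, rose from 951 to 1185 CPM (0.32, adjusted p = 0.000474), and *Calr*, the calcium-binding lectin chaperone, rose from 906 to 1242 CPM (0.45, adjusted p = 3.33e-05). *Serpinh1*, the collagen chaperone HSP47, fell from 1526 to 1236 CPM (-0.30, adjusted p = 0.00196). The summed macrophage markers were at 24.5 to 27.6 CPM in WT and at 1415 to 2406 CPM in *Aff3ir-ORF2-/-* libraries, and their part in the differences of these and the other chaperone lists was not tested.

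Other genes known to be induced by heat through HSF1 did not move one way. Of 19 such genes outside the 10, 6 were higher and 9 lower, and the median log2 fold change was -0.07. Over all tested genes, 29.4% were higher and 27.6% lower, with 7.32% lower by at least 1.5-fold. *Dedd2* (1.08, adjusted p = 0.000146) and *Cryab* rose, and *Ier5* (-0.69, adjusted p = 0.000159), *Fkbp4*, *Hsp90ab1* and *Serpinh1* fell. Without *Aff3ir-ORF2-/-* replicate 2 the counts were again 6 higher and 9 lower, with a median of -0.04. Immediate-early genes, which respond within minutes to serum or handling, were lower: of 20 genes, 15 fell, each by at least 1.5-fold, 0 rose, and the median was -1.11. With *Aff3ir-ORF2-/-* replicate 2 left out, 18 fell. *Egr1* fell from 358 to 48.3 CPM (-2.89), and the log2 fold change was -3.62 for *Fosb*, -3.57 for *Egr2*, -3.47 for *Egr3*, -1.03 for *Jun* and -0.96 for *Klf6*. Their part in the heat shock differences was not tested. Across the lists, 13 genes stood in more than 1 list.

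**Figure D5:**
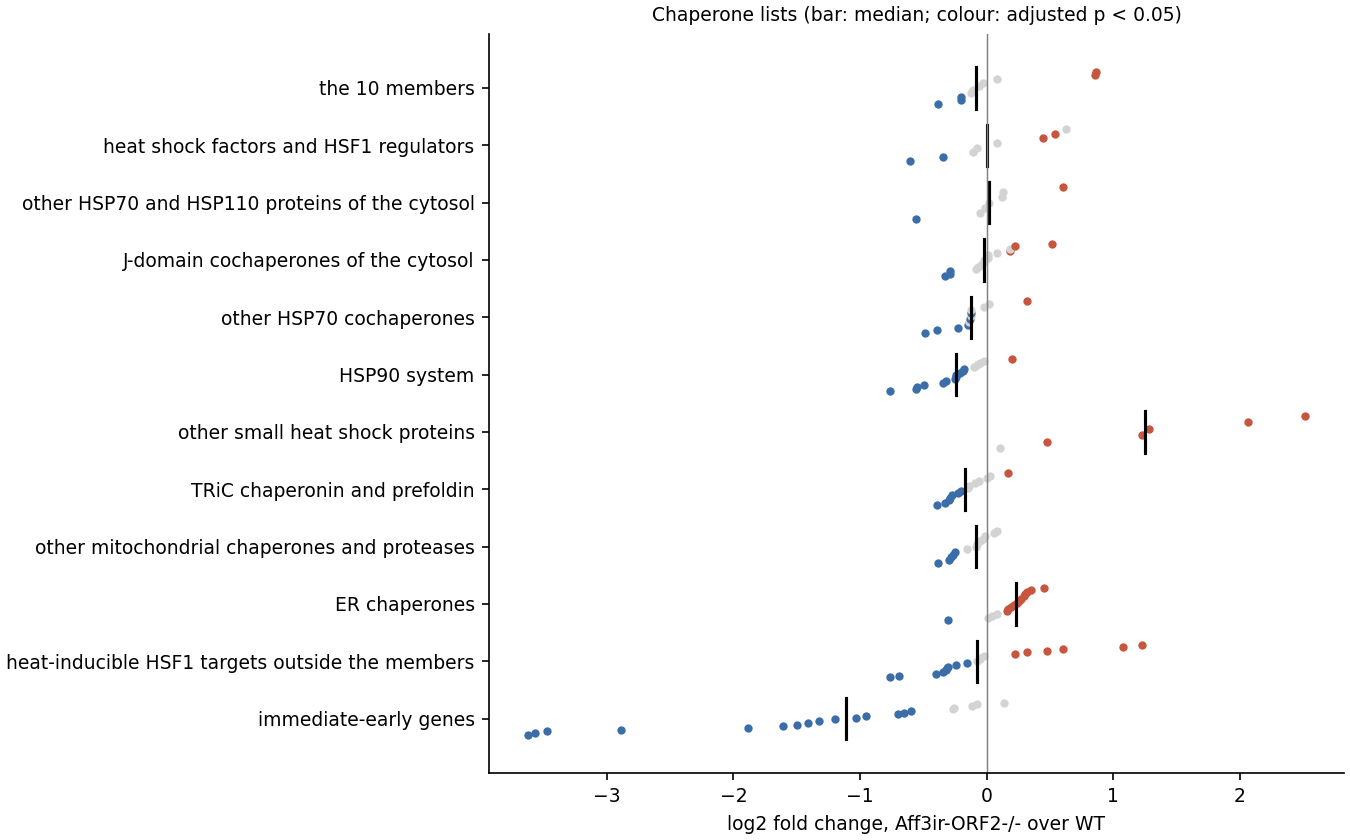
Log2 fold change of each tested gene of the heat shock group, of 10 lists of chaperones and HSF1-related genes and of the immediate-early genes; each point is 1 gene, coloured where the adjusted p was under 0.05 (red higher, blue lower), and the black bar is the median. The median is -0.24 for the HSP90 system, 0.23 for chaperones of the endoplasmic reticulum and -1.11 for immediate-early genes.

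Genes with the most similar pattern over the 6 libraries were found by the Euclidean distance of log2 CPM minus the WT mean, among 11699 genes with an average of at least 1 on the log2 CPM scale. Among the 5 nearest to *Hspa1a* were *Gabra4* (distance 0.134), *Dcaf5* (0.188), *F11r* (0.22) and *Dmd* (0.225), which were 0.78 to 0.84 higher on the log2 scale. Among the 5 nearest to *Hspd1* were *Cdc42bpa* (distance 0.0569), *Cdv3* (0.0571), *C2cd2* (0.0581) and *Arl5a* (0.0596), with log2 fold changes of -0.23 to -0.18. The measure covers all 6 libraries and gives no test.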

How the data were processed

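Whole-transcriptome RNA-seq of 3 WT and 3 *Aff3ir-ORF2-/-* libraries of MEFs was used, with groups taken from the sample titles. Reads were paired-end, from the DNBSEQ-G400 platform, and filtered with SOAPnuke by the sequencing company. The submitters' processing notes name the genome build mm8, and the aligner, the counter and its use of strand are not given in the sources used here. The authors deposited estimated counts per gene, of which 10.6% to 11.3% per library were not whole, and these were rounded to whole counts before testing. Totals of 17435133 to 18252330 counts per library set the precision, and a count of 3 in a library corresponds to 0.164 to 0.172 CPM. The table held no columns of other libraries.

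Genes were tested with edgeR 4.0.16 in R 4.3.3 (filterByExpr with a minimum count of 10 and a total of 15, TMM scaling, glmQLFit and glmQLFTest) over all 13075 genes kept, and p-values were adjusted over all of them by the Benjamini-Hochberg method. Calls used an adjusted p under 0.05, and also a 1.5-fold change where stated. Standard errors were derived from the fitted change and its test statistic. CPM were computed with the TMM library sizes, and log2 CPM for patterns used a prior count of 2. Ratios within a library used exact permutation tests over libraries. Lengths and shared windows of 150 bases came from GENCODE M21 transcripts, and upstream sequences from RefSeq, in which 17043 gene IDs were found. The test was tried on simulated counts first.

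The 10 genes and the gene lists were chosen with earlier results of these data known. Named genes were the 10, and from each pathway list up to 4 with the lowest adjusted p past both thresholds and up to 3 with the highest mean CPM, from each marker list the 4 with the highest mean CPM, and the 5 nearest in pattern to *Hspa1a* and to *Hspd1*. *C1qa*, *C1qb* and *Aif1* were added once their values had been seen, and a few genes named by this rule are not reported here. Alternatives were other scalings and filters, DESeq2 1.42.0, limma 3.58.1, the replicate number as a block, each library left out, a 2-fold threshold and, added after seeing the data, a robust estimate of the spread.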

Additional observations from a re-analysis of the deposited data

How the results depend on the processing

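The rises of *Hspa1a* and *Hspa1b* and the fall of *Hsp90aa1* kept an adjusted p under 0.05 in every alternative fit. Their log2 fold changes were 0.76 to 0.97, 0.78 to 0.90 and -0.43 to -0.31. *Dnajb1* turned sign with upper quartile scaling (0.0048) and without *Aff3ir-ORF2-/-* replicate 2 (0.054), with values of -0.085 to 0.054 when 1 library was left out. At a 2-fold threshold 0 of the 10 heat shock genes were called higher. With 1 library left out, the number of the 10 that were lower ranged from 1 to 4, with 1 without WT replicate 3. Calls over all tested genes also moved, with 6213 of 13256 without WT replicate 3. They ranged from 6113 of 13260 without WT replicate 2 to 8037 of 13169 without *Aff3ir-ORF2-/-* replicate 2. Leaving out a library gave 4 to 7 calls among the cochaperones of HSP70 and 1 to 3 among the epithelial markers. The cochaperones of HSP70 gave 4 calls with upper quartile scaling, with library totals and with the replicate block. Requiring 10 counts in every library gave 4 calls among other small heat shock genes, 8 among macrophage, 3 among endothelial and 0 among epithelial markers, since fewer genes were tested, and epithelial markers gave 3 calls with no filter and 2 with DESeq2. The cause of the other changes was not tested.

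Same-numbered libraries of the genotypes were not treated as pairs in the main test. Their deviations from the group means correlated by 0.0386, 0.0424 and 0.0145, beside -0.0369 to 0.00462 for libraries of different number. Such correlations cannot show whether same-numbered libraries shared a batch or culture, which the sources used here do not say. With the replicate number as a block, 7289 genes were called beside 7444 without it, and the block changed no call among the 10 heat shock genes. The robust estimate of the spread, chosen after seeing the data, changed none of them either. The median log2 fold change of all genes was at most 0.0433 under the other scalings, beside -0.03 for *Dnajb1* and -0.06 for *Hsf1*. For *Hspa1a*, counts of 61 to 138 per library limit the precision.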
